A study of Homo sapiens with 14 samples.

Results

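The regions described here are distal GLTSCR1 peaks that lie under the SS18::SSX fusion in untreated HS-SY-II cells, a synovial sarcoma cell line. The members were chosen by their calls in the DMSO peak lists. A member is a DMSO GLTSCR1 region of at most 5000 bp on chromosomes 1 to 22, X or Y that does not touch the 1000 bp on either side of any end of a protein-coding gene, and that overlaps a DMSO fusion region by at least 1 bp. Of 18037 DMSO GLTSCR1 regions, 8053 (44.6%) met this rule. The others were 3489 distal regions without the fusion, 2430 gene-end regions with it, 3838 gene-end regions without it and 227 regions over 5000 bp wide.

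Chromatin immunoprecipitation followed by sequencing was done with an antibody to GLTSCR1 and with an anti-HA antibody that binds the tagged fusion. Treatment was WA-68 at 100 nM, a PROTAC that targets the protein BRD9 for degradation, and DMSO was the vehicle. GLTSCR1 was profiled in DMSO and after 12, 24, 48 and 96 h with the degrader, the fusion in DMSO and after 12, 24 and 48 h. All libraries came from this 1 cell line, whose genotype the labels give as WT, and the sources do not say how the HA-tagged fusion was introduced. Each group held 1 library, so no replicate error was available, and intervals cover counting error only. No harvest time is given for the DMSO cells, whose 1 library per antibody served for all times, so time in culture and time of WA-68 cannot be told apart.

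GLTSCR1, encoded by BICRA, and BRD9 are defining subunits of GBAF, a form of the BAF (SWI/SNF) chromatin remodelling complex that lacks several subunits of the canonical and PBAF forms. SS18 is a subunit of both canonical BAF and GBAF. In synovial sarcoma a translocation joins SS18 to an SSX protein, whose C-terminal part binds nucleosomes carrying ubiquitylated histone H2A, the mark laid down by Polycomb repressive complex PRC1. Distal regions bound by BAF complexes often act as enhancers.

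The sequences that could be printed come from RefSeq (GRCh38.p14). They are 300-base windows around annotated transcription starts, and members overlap few of them, since the rule keeps regions away from the ends of coding genes. On the chromosomes that the window table covers, 464 of 7598 members (6.11%, 95% interval 5.58 to 6.67) overlapped a start window, against 430 of 3332 distal regions without the fusion (12.9%, 11.8 to 14.1). Long non-coding RNA (lncRNA) starts lay under 269 members and coding starts, which are internal promoters of coding genes here, under 227. Shown is the lncRNA window lying wholly inside the member of highest DMSO GLTSCR1 fold in each of 4 later states. LINC01415 starts at chr18:55781676-55781975 on the minus strand, nearest the transcription factor gene TCF4, and its member kept both proteins at all later times. LINC00237 starts at chr20:21101426-21101725 on the minus strand, and its member kept the fusion and had no later GLTSCR1 call. LINC02076 starts at chr17:18410909-18411208 on the plus strand, and its member kept GLTSCR1 and had no later fusion call. RASSF3-DT, divergent to the tumour suppressor gene RASSF3, starts at chr12:64609417-64609716 on the minus strand, and its member was in no later list of either protein. Each is written 5′ to 3′ with matches to the GC box (GGGCGG), the AP-1 motif (TGANTCA) and the TEAD motif (GGAATG), on either strand, in capitals.
LINC01415: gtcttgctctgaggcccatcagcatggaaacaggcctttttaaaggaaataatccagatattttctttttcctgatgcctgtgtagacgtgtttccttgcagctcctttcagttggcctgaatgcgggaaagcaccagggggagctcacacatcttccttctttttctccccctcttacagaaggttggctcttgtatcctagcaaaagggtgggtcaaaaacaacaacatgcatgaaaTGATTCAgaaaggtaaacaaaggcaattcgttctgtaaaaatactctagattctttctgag
LINC00237: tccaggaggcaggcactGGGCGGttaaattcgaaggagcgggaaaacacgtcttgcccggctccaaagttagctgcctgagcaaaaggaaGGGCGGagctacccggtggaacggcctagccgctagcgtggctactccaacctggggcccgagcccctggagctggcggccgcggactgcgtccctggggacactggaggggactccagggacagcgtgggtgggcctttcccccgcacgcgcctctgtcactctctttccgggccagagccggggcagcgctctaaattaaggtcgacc
LINC02076: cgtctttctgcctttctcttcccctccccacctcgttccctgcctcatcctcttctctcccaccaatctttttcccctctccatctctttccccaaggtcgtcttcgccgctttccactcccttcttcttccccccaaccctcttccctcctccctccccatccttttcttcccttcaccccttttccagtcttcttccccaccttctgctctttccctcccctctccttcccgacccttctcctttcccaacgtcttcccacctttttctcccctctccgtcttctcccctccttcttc
RASSF3-DT: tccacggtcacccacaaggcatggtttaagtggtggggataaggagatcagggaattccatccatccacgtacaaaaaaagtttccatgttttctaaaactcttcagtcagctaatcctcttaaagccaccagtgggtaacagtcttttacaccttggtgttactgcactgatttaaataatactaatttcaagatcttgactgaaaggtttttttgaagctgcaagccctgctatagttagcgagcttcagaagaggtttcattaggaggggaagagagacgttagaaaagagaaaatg

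The LINC01415 window held 1 AP-1 match and no GC box, and the GLTSCR1 summit lay 27 bp from the start. The member had GLTSCR1 folds of 22.2 in DMSO and 12.6, 8.27, 17.5 and 20.2 after 12, 24, 48 and 96 h, and fusion folds of 5.01 in DMSO and 4.36, 4.95 and 3.01 after 12, 24 and 48 h. A fold is the authors' enrichment of the strongest summit over background within 1 library, so values of different lists cannot be read as a change in binding. At LINC00237, with 2 GC boxes, the GLTSCR1 fold was 7.15 in DMSO and no later GLTSCR1 region was called, while the fusion folds were 9.34, 4.30, 8.16 and 6.12 in DMSO and after 12, 24 and 48 h. LINC02076 held none of the 3 motifs, and its GLTSCR1 folds were 17.1, 7.91, 8.11, 5.41 and 7.36 beside a fusion fold of 4.50 in DMSO alone. RASSF3-DT held none either, with folds of 4.71 for GLTSCR1 and 3.31 for the fusion in DMSO alone. The 4 windows differ in base composition, from 41.0% G and C at RASSF3-DT to 65.7% at LINC00237.

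Over the 593 start windows that members overlap, 57.8% held a GC box, against 45.0% of all 35116 RefSeq windows and 61.8% of the 539 windows under distal regions without the fusion. The AP-1 motif was in 4.22% of members' windows and 7.71% of all windows, and the TEAD motif in 15.7% and 14.0%. The E-box (CANNTG) was in 61.9% and 68.7%, and the CTCF core (CCCTC) in 81.6% and 71.2%. Among windows under members with GLTSCR1 at every later time 49.6% of 256 held a GC box, and among those under members with GLTSCR1 at no later time 73.4% of 94. Their mean G and C content was 59.4% and 66.6%, so windows richer in G and C were more frequent among the lost ones. A match describes letters in a window and not a site of binding.

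In the RefSeq table, 14 microRNA hairpins were overlapped by 13 members, since MIR3190 and MIR3191 lie in the same one. Of these 13, GLTSCR1 was called at every later time at 8 and the fusion at 10, beside 35.3% and 76.4% of all members. MIR200B, chosen for display after its values were seen, encodes a microRNA known for holding cells in an epithelial state by repressing ZEB1 and ZEB2. Synovial sarcoma can contain epithelial areas. Its hairpin is at chr1:1167104-1167198 on the plus strand. The mature strands are given with the seed, bases 2 to 8, in capitals.
hsa-miR-200b-3p: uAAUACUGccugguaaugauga
hsa-miR-200b-5p: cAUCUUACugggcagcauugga
Over MIR200B the GLTSCR1 fold was 5.17 in DMSO and 4.44 after 96 h, with no call at 12, 24 or 48 h, and the fusion folds were 11.4, 9.91, 15.7 and 12.0 in DMSO and after 12, 24 and 48 h. The fusion was thus called over this hairpin in all its lists, and GLTSCR1 in DMSO and at 96 h alone. MIR5580, nearest the growth factor gene BMP4, was the only hairpin of the 14 with GLTSCR1 in DMSO alone, at a fold of 4.03, and it also carried the fusion throughout.

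In DMSO a member was typically a narrow GLTSCR1 region inside a broader fusion region. The median member was 612 bp wide with a GLTSCR1 fold of 4.77 (quartiles 3.92 and 6.14), and the strongest fusion region over it was 2818 bp wide with a fold of 7.42 (5.09 and 10.6). For 5337 members (66.3%) the whole region lay inside the fusion, and 2409 (29.9%) lay in a fusion region over 5000 bp wide. The strongest summits of both proteins were a median of 457 bp apart, within 250 bp at 2824 members (35.1%) and over 1000 bp apart at 2476 (30.7%). Across the 8053 members, which share both libraries, the GLTSCR1 fold and the fusion fold had a Spearman correlation of -0.0736. Gene-end regions with the fusion had a lower median fusion fold, 4.70, in fusion regions of 782 bp. These values follow in part from the rule and from the 5000 bp limit and are a description.

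Many members were grouped along the genome. They shared fusion regions, with 3673 members in 1390 fusion regions that held 2 or more and at most 13 in 1. With gaps of up to 10000 bp the 8053 members formed 4205 clusters, of which 2487 were single members and 1718 held 2 or more. Clusters of 5 or more numbered 265 and took in 1808 members. Neighbouring members are therefore not independent. Intervals over members treat them as independent and are likely too narrow. The largest cluster, 27 members over 113 kb of chromosome 16 at SSTR5, a somatostatin receptor gene, C1QTNF8 and the calcium channel gene CACNA1H, had GLTSCR1 at every later time at 3 members and the fusion at 26. The clusters named next were not picked by a set rule. Larger ones at CCDC200 and FMN1 held 24 and 20 members, with GLTSCR1 at every later time at 3 and 5 and the fusion at 24 and 14. At RHOU, which encodes a small GTPase, none of 15 clustered members had GLTSCR1 at every later time, and the fusion was called throughout at all 15. Another cluster of 15, at AP3B1, had GLTSCR1 at every later time at 8 and the fusion at 13. SEMA3D, the gene of a secreted semaphorin, had a cluster of 15 with GLTSCR1 throughout at 9 and the fusion at 12. The homeobox gene IRX1 had 12, with 3 and 12, and the chromatin gene BAHCC1 19, with 5 and 19. For comparison, GLTSCR1 was throughout (12 to 96 h) at 35.3% of all members and the fusion (12 to 48 h) at 76.4%. Among members with another within 2 kb these shares were 33.4% and 86.0%.

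By an overlap of 1 bp, GLTSCR1 was still called at most members at each later time, and the share did not fall from 12 to 96 h. It was called at 54.5% of members (95% interval 53.4 to 55.5) after 12 h, where 55.8% of all DMSO GLTSCR1 regions had a call. At 24 h the share was 56.7% (55.6 to 57.7) against 47.6% of all regions. At 48 h it was 57.5% (56.4 to 58.5) against 43.2%, and after 96 h 59.9% (58.8 to 61.0) against 48.6%. The members were thus close to all regions after 12 h and above them from 24 h on. All regions include the members themselves. That most members kept a call depends on the rule. With strongest summits within 250 bp GLTSCR1 was kept at 34.9%, 35.3%, 38.2% and 37.8% of members after 12, 24, 48 and 96 h. Later lists of equal length gave 49.3%, 52.5%, 57.5% and 55.3%.

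Over the 4 later lists together, 2839 members (35.3%, 34.2 to 36.3) had GLTSCR1 in every one and 1675 (20.8%, 19.9 to 21.7) in none, where all DMSO regions had 26.7% and 26.0%. The other 3539 members (43.9%) were mixed. The mixed members did not follow a single order in time. A call at 12 h and at none of the others was seen at 249 (3.09%), and a call at 96 h alone at 365 (4.53%). A member called at 12 h was called at 96 h in 82.4% of 4385 cases, and a member not called at 12 h in 32.9% of 3668. Each call that returns after a gap rests on a single library.

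**Figure D1:**
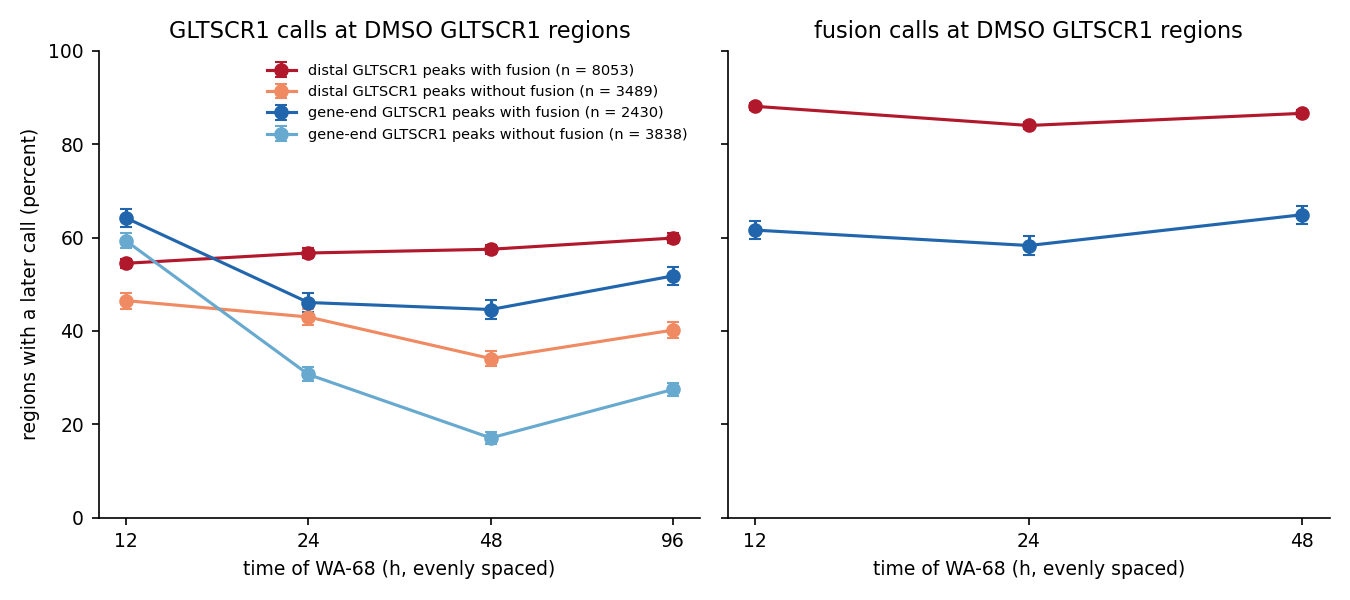
Share of DMSO GLTSCR1 regions with a later GLTSCR1 call (left, 4 classes) or fusion call (right, classes with the fusion in DMSO), in percent, against time of WA-68 in h; points are single libraries and bars exact 95% intervals of counting error. GLTSCR1 calls at distal regions with the fusion stay between 54.5% and 59.9%, while the other 3 classes shown are lower after 48 h than after 12 h.

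Distal regions without the fusion had GLTSCR1 at 46.5% after 12 h, 34.1% after 48 h and 40.2% after 96 h. Gene-end regions with the fusion had it at 64.2%, 44.6% and 51.8%, and those without the fusion at 59.3%, 17.1% and 27.5%. The 227 GLTSCR1 regions over 5000 bp wide, left out of these classes, had it at 99.6%, 100% and 99.1%. Since classes differ in peak strength, the shares were also compared within bins of DMSO GLTSCR1 fold. Members exceeded distal regions without the fusion by 6.62 percentage points (4.75 to 8.50) after 12 h, 12.5 (10.6 to 14.4) after 24 h, 22.1 (20.2 to 24.0) after 48 h and 18.5 (16.6 to 20.4) after 96 h. Members are also wider, with a median of 612 against 424 bp. Matching on width as well left 2.06 points (-0.0185 to 4.14) after 12 h, an interval that includes 0, and 8.71 (6.59 to 10.8), 21.0 (18.9 to 23.1) and 17.4 (15.3 to 19.6) at the later times. When strongest summits had to lie within 250 bp the difference turned to -4.00 (-5.88 to -2.12) after 12 h and -0.757 (-2.63 to 1.12) after 24 h, and was 8.0 (6.17 to 9.83) after 48 h and 2.45 (0.581 to 4.32) after 96 h.

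Set against gene-end regions with the fusion, at like DMSO fold, members differed by 2.39 points (-0.00411 to 4.78) after 12 h, an interval that includes 0. This value depended on the settings, and was 5.72 (3.64 to 7.81) with gene-end windows of 3000 bp, 3.27 (0.932 to 5.61) with width matched as well and 2.77 (0.431 to 5.12) with later lists of equal length. The difference was 21.7 (19.4 to 23.9) after 24 h, 22.3 (20 to 24.6) after 48 h and 18.8 (16.4 to 21.1) after 96 h. Under the summit rule it stayed positive at 2.84, 13.8, 17.0 and 12.4 points. With only those regions that hold the strongest fusion summit, it was -0.212 (-2.98 to 2.56) after 12 h. The fusion fold was not matched in any of these comparisons. Its median was 7.42 over members and 4.70 over gene-end regions with the fusion, in fusion regions of 2818 and 782 bp.

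**Figure D2:**
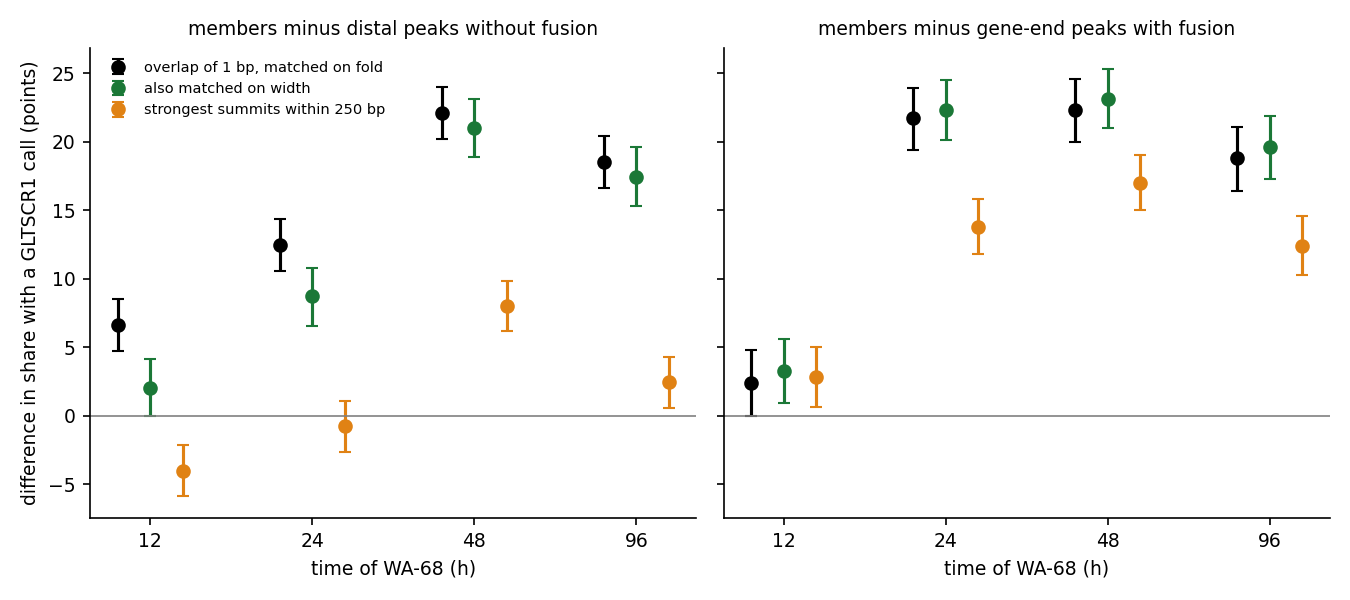
Share of members with a GLTSCR1 call minus the share of another class at like DMSO GLTSCR1 fold, in percentage points, against time of WA-68 in h; black points use an overlap of 1 bp, green ones also match width, orange ones need strongest summits within 250 bp, and bars are 95% intervals of counting error. Against distal regions without the fusion (left) the orange points are below 0 at 12 and 24 h, and against gene-end regions with the fusion (right) all points are above 0.

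By an overlap of 1 bp, the fusion was called more often than GLTSCR1 at the members after WA-68. Its later lists were also longer, at 24846 to 28619 regions against 13677 to 16021 for GLTSCR1. With strongest summits within 250 bp the fusion was kept at 39.5%, 42.8% and 42.4% after 12, 24 and 48 h. GLTSCR1 was kept at 34.9%, 35.3% and 38.2% by that rule. A later fusion region overlapped 88.1% of members (87.4 to 88.8) after 12 h, 84.0% (83.2 to 84.8) after 24 h and 86.6% (85.8 to 87.3) after 48 h. Of all 24953 DMSO fusion regions, counted region by region, 72.3%, 64.7% and 68.8% were still called. The fusion was called throughout at 6156 members (76.4%) and at no later time at 445 (5.53%), where 50.8% and 14.3% of all DMSO fusion regions were. Fusion regions are wide, and a wide region is hit more easily by a rule of 1 bp. The 5806 distal fusion regions that overlap a member were therefore compared with 13941 distal fusion regions without GLTSCR1 at like fusion fold. They differed by 0.630 points (-0.357 to 1.62) after 12 h, 3.26 (2.20 to 4.32) after 24 h and 2.77 (1.73 to 3.80) after 48 h. With width matched as well the sign turned, to -3.56 (-4.42 to -2.69), -1.60 (-2.54 to -0.649) and -2.21 (-3.11 to -1.32).

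Seen together, both proteins were called at 49.2% of members after 12 h, 49.7% after 24 h and 52.5% after 48 h. The fusion without GLTSCR1 was the next most frequent state, at 38.9%, 34.3% and 34.1%. GLTSCR1 without the fusion was at 5.27%, 6.93% and 4.97%, and neither at 6.61%, 9.05% and 8.43%. Through all later lists 2358 members (29.3%) had both, 1015 (12.6%) had the fusion and never GLTSCR1, 109 (1.35%) had GLTSCR1 and never the fusion, and 164 (2.04%) had neither. The fusion lists stop at 48 h, so the state at 96 h is known for GLTSCR1 alone. At like fusion fold, members with a GLTSCR1 call had the fusion more often than those without, by 3.62 points (2.41 to 4.83) after 12 h, 5.82 (4.46 to 7.18) after 24 h and 6.84 (5.63 to 8.04) after 48 h. Width was not matched here. Members with a GLTSCR1 call after 12 h had a median DMSO width of 826 bp, against 612 bp over all members, and a wider region is hit more easily.

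**Figure D3:**
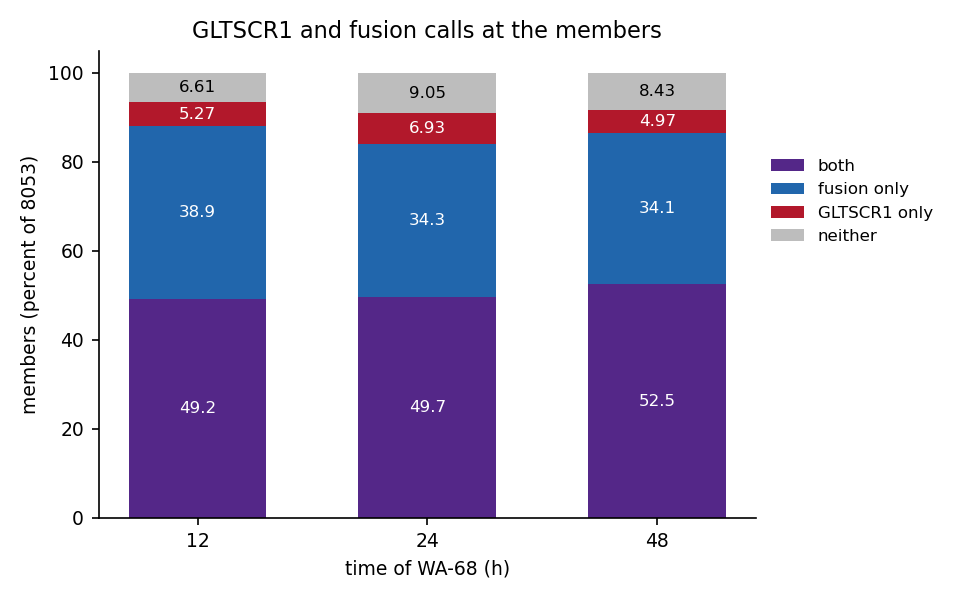
Members by state at each time of WA-68 (h), as percent of the 8053 members; colours show calls of both proteins, the fusion only, GLTSCR1 only or neither, with 1 library per antibody and time. Both were called at 49.2% to 52.5% and the fusion only at 34.1% to 38.9%.

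GLTSCR1 retention followed both folds, and fusion retention followed the fusion fold. From the lowest to the highest decile of DMSO GLTSCR1 fold, the share with GLTSCR1 at every later time was 20.7% (18.0 to 23.7) and 78.8% (75.8 to 81.6), while the share with the fusion throughout was 84.7% (82.0 to 87.1) and 66.4% (63.0 to 69.6). From the lowest to the highest decile of fusion fold, the fusion was kept throughout at 27.8% (24.8 to 31.1) and 98.5% (97.4 to 99.2), and GLTSCR1 at 34.8% (31.5 to 38.2) and 49.0% (45.5 to 52.5). The GLTSCR1 share was not ordered over the lower fusion deciles, at 29.0% in the second lowest, and the median GLTSCR1 fold of the fusion deciles lay between 4.48 and 5.08. Splitting both folds in 3 gave 16.5% (14.0 to 19.3) with GLTSCR1 throughout where both were low and 66.9% (63.5 to 70.2) where both were high. Where the GLTSCR1 fold was low the share was 29.4% (26.5 to 32.3) with a high fusion fold. These groups have like widths, with medians of 441 and 448 bp at low GLTSCR1 fold, but medians of 990 and 1376 bp at high GLTSCR1 fold.

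**Figure D4:**
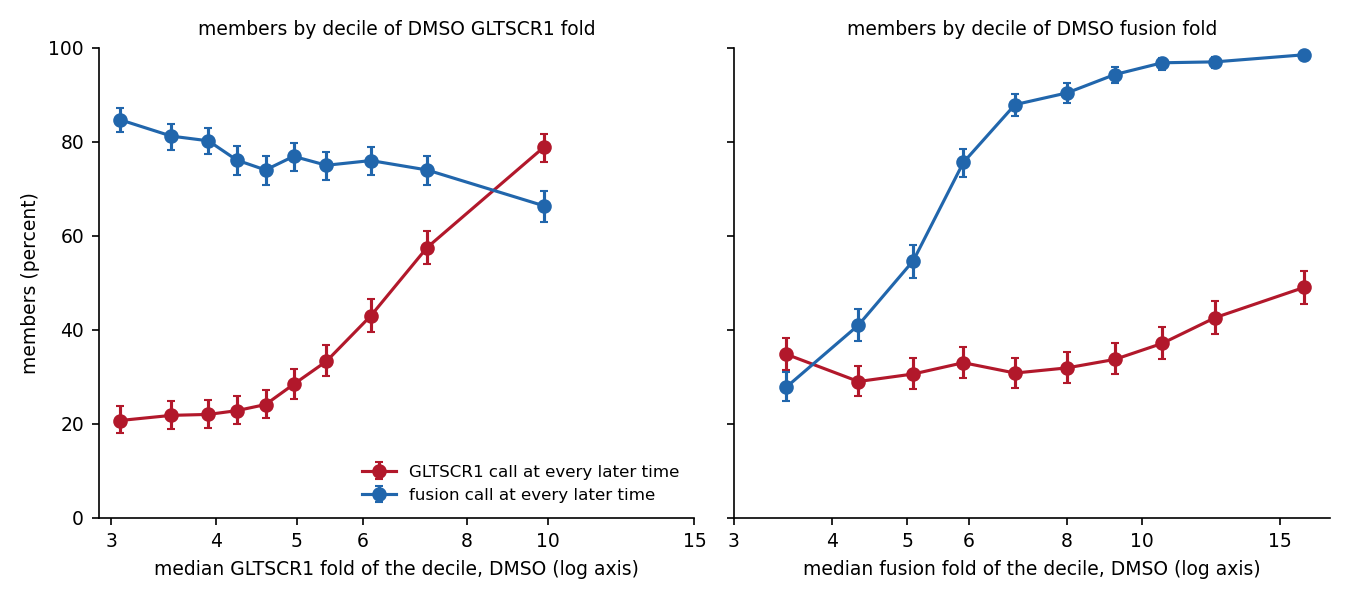
Percent of members with GLTSCR1 (red) or the fusion (blue) called at every later time, by decile of DMSO GLTSCR1 fold (left) and of DMSO fusion fold (right), each placed at the median fold of the decile on a log axis; bars are exact 95% intervals of counting error. The red line rises from 20.7% to 78.8% on the left and the blue line from 27.8% to 98.5% on the right.

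Width moved with retention too. A wider region is hit more easily by a rule of 1 bp, and this was not separated from retention here. Among the 646 members of up to 300 bp, 12.1% (9.66 to 14.8) had GLTSCR1 at every later time, and among the 240 members of 3001 to 5000 bp 94.2% (90.4 to 96.8). The fusion was kept throughout at 69.7% and 85.4% of these. None of the 240 widest members lost GLTSCR1 at all times, which allows a share of up to 1.53% (exact upper bound). The median GLTSCR1 fold was 4.10 in the narrowest and 9.01 in the widest members, and fold and width had a Spearman correlation of 0.531 over the members.

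**Figure D5:**
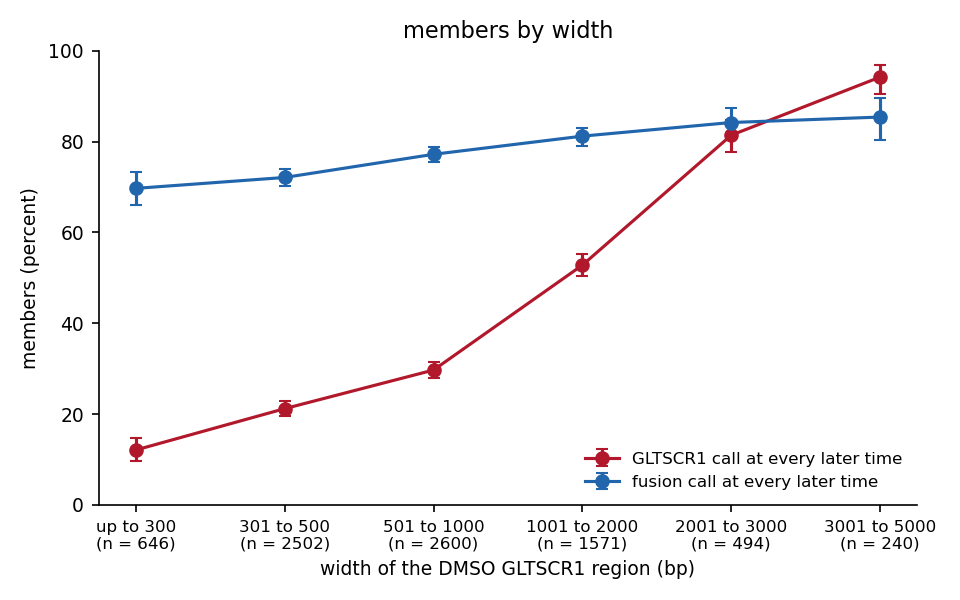
Percent of members with GLTSCR1 (red) or the fusion (blue) at every later time against the width of the DMSO GLTSCR1 region in bp, with the number of members in each class; bars are exact 95% intervals of counting error. GLTSCR1 rises from 12.1% to 94.2%, and the fusion lies between 69.7% and 85.4%.

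The later GLTSCR1 regions were mostly narrower than those in DMSO. At the 4627 members called after 48 h the median width was 811 bp in DMSO and 567 bp after 48 h, and 67.8% were narrower. The whole GLTSCR1 lists moved alike, with medians of 568 bp in DMSO and 400 bp after 48 h. The strongest summit was within 250 bp of its DMSO place at 60.7%, 58.5%, 62.0% and 60.1% of kept members after 12, 24, 48 and 96 h. The GLTSCR1 lists held 13677 to 16021 regions after WA-68.

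Position relative to genes made a smaller difference. In coding gene spans lay 4054 members (50.3%), with GLTSCR1 throughout at 34.7% (33.2 to 36.2) against 35.8% (34.3 to 37.3) outside. Up to 5 kb from a gene end the share was 26.7% (24.3 to 29.3), and from 50 to 100 kb it was 39.1% (36.4 to 41.9). The 237 members over a lncRNA start and no coding start had GLTSCR1 throughout at 49.8% (43.3 to 56.3) and the fusion at 64.1% (57.7 to 70.2), and members over no start had 34.4% (33.3 to 35.5) and 77.4% (76.4 to 78.3). Members over lncRNA starts were also wider, with a median of 1265 against 593 bp, and had a lower fusion fold, 5.43 against 7.61. Isolated members lost the fusion more often: the 581 with no other member within 200 kb kept it throughout at 37.7% (33.7 to 41.8), and the 4282 with at least 1 within 2 kb at 86.0% (84.9 to 87.0). Their median fusion folds were 4.71 and 9.16.

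Among members with GLTSCR1 at every later time, those of highest DMSO fold were named. The strongest lay 15.1 kb from NPTX1, which encodes a secreted synaptic protein, at chr17:80491680-80492866. Its GLTSCR1 folds were 57.4 in DMSO and 16.6, 19.7, 23.3 and 10.0 after 12, 24, 48 and 96 h, and its fusion folds 13 in DMSO and 6.63, 11.5 and 14.0 after 12, 24 and 48 h, with summits 4 bp apart in DMSO. All 9 lists held this region. A member 13.4 kb from NANOS3, a germ-cell RNA-binding protein gene, had GLTSCR1 folds of 37.0, 24.7, 10.5, 13.3 and 16.5 and fusion folds of 7.61, 4.26, 3.89 and 5.64 in the same order. The member near the X-linked actin regulator gene NHS had 28.8, 18.2, 15.4, 26.1 and 17.9 for GLTSCR1, and the fusion in all 4 lists at 8.31, 6.09, 5.78 and 8.92. Within TBL1XR1, which encodes a subunit of the NCoR corepressor, a member of 4667 bp at chr3:177194992-177199658 had 27.0, 22.1, 22.2, 15.1 and 22.0, with 38.2% of it under the fusion region in DMSO.

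The remaining members of this group were near FOS, KLF9, TSEN15 and LOC124900476. The member 11.3 kb from FOS, an immediate early AP-1 gene, had GLTSCR1 folds of 28.5, 19.0, 15.8, 8.11 and 18.7, and the fusion was called in DMSO (5.04), at 12 h (3.37) and at 48 h (5.18) but not at 24 h. Near KLF9, a zinc-finger transcription factor gene, both proteins were in every list, with DMSO folds of 27.6 and 6.34. The member 58.3 kb from TSEN15, a tRNA-splicing endonuclease gene, had DMSO folds of 25.8 and 14.6 and both proteins throughout. That near LOC124900476 (35.6 and 5.91) lacked the fusion at 24 h. Of the 8 strongest kept members, 6 carried the fusion in every list. The fusion was called throughout at 76.4% of all members, and at 2358 of the 2839 with GLTSCR1 at every later time.

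Members with GLTSCR1 at no later time had lower DMSO folds, and the strongest, near the germ-cell RNA-binding gene YBX2, had 11.7. It carried the fusion in DMSO (4.09) and at 48 h (4.25). EAPP, which encodes an E2F-associated phosphoprotein, followed with 11.2 for GLTSCR1 and 7.48 for the fusion in DMSO and no later call of either. Within C1QTNF8, a member at chr16:1089467-1090916 had a GLTSCR1 fold of 10.3 in DMSO alone and fusion folds of 7.10, 7.93, 9.85 and 7.19 in all 4 lists, and the whole member lay in a fusion region of 6.48 kb. The members near LOC102723996 (10.3) and ADIPOQ, the adiponectin gene (8.12), had the fusion at some or all later times. A member within KCTD2 (8.54) had it at 48 h, at a fold of 3.38, and a member 295 kb from BCOR, which encodes a subunit of a variant PRC1 complex, had GLTSCR1 (8.07) and the fusion (4.87) in DMSO alone.

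The 1015 members with the fusion throughout and no later GLTSCR1 were led, after C1QTNF8 and LOC102723996, by a member within AUTS2. AUTS2 is a neurodevelopmental gene whose product joins a PRC1 complex. Its GLTSCR1 fold was 7.87 in DMSO, and its fusion folds were 7.40, 5.25, 4.23 and 4.85. A member 190 kb from the mesenchymal forkhead gene FOXF1 had 7.73 for GLTSCR1 and 9.50, 7.76, 7.29 and 8.72 for the fusion. Within TMEM260 a member had 7.62 and then 9.96, 11.4, 7.28 and 7.59, and within PPARGC1A, the gene of a coactivator of mitochondrial biogenesis, 7.55 and then 5.62, 6.18, 6.33 and 4.95. By the way this group was chosen, all of these had the fusion in the 4 fusion lists and GLTSCR1 in 1 of its 5.

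The 109 members of the opposite kind had a median DMSO fold of 7.81 for GLTSCR1 and 3.95 for the fusion, against 4.77 and 7.42 over all members. The one of highest GLTSCR1 fold lay within EPYC, a small leucine-rich proteoglycan gene of cartilage, at chr12:90977648-90982204, with GLTSCR1 folds of 22.6, 13.6, 25.2, 17.8 and 18.2 and a fusion fold of 3.93 in DMSO alone. The fusion covered 9.96% of this member. Near the kinase gene PIM1 the GLTSCR1 folds were 21.8, 11.4, 11.1, 7.53 and 9.53 and the fusion fold 4.87, and near PLEKHO1 20.1, 10.7, 4.53, 7.14 and 9.51 and 6.13. The member near LOC124900275 had DMSO folds of 16.7 and 3.76. EVPLL, whose nearest member is the LINC02076 one printed above, completes those named here.

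Of the 164 members with neither protein later, those with the highest DMSO GLTSCR1 fold were near EAPP and BCOR, given above, within STAP2, DPP6 and NEMP1, and 208 kb from ENC1. Their GLTSCR1 folds in DMSO were 7.79 at STAP2, a signalling adaptor gene, 7.78 at DPP6, which encodes a potassium channel partner, 7.61 at ENC1, an actin-binding protein gene, and 7.38 at the nuclear membrane gene NEMP1. The fusion folds were 5.64, 4.88, 4.37 and 4.20. All 4 were narrow, from 414 bp at ENC1 to 594 bp at STAP2.

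Counted by gene, 1254 coding genes held a member in their span, 90 of them 10 or more. CDH4, a cadherin gene, had 37 in 688 kb. The fusion was called at all 37 at each later time, while GLTSCR1 was called at 18, 17, 23 and 23 after 12, 24, 48 and 96 h and throughout at 12. MECOM, a zinc-finger transcription factor gene, had 30, with GLTSCR1 throughout at 6 and the fusion at 26, and AUTS2 27, with 9 and 24. Of the 26 in SKAP1, a T-cell adaptor gene, GLTSCR1 was kept throughout at 16 and lost at all times at 0. CHLSN and the TALE homeobox gene PBX3 had 25 each. At CHLSN GLTSCR1 was called at 9 members at 12 h and 19 at 96 h, throughout at 4, with the fusion throughout at 25. PBX3 had GLTSCR1 throughout at 12 and the fusion at 24.

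FMN1, a formin gene near the BMP antagonist gene GREM1, had 24 members, with GLTSCR1 throughout at 6 and the fusion at 16. IMMP2L, INPP5A, LRMDA, NFIB and RAD51B had 23 each, with GLTSCR1 throughout at 11, 9, 13, 8 and 8 and the fusion at 22, 23, 21, 16 and 14. The density was 15.6 members per 100 kb at CHLSN and 2.04 at LRMDA. In each of these 12 genes the fusion was kept throughout at more members than GLTSCR1 was. The same order held over all members, at 76.4% for the fusion and 35.3% for GLTSCR1, so it is not particular to these genes. Throughout covers 12, 24 and 48 h for the fusion and also 96 h for GLTSCR1. Without the 96 h list GLTSCR1 was in every later list at 37.9% of members.

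Members were also counted by gene lists drawn up for the tissue, beside all members (GLTSCR1 throughout, 12 to 96 h, at 35.3%, fusion throughout, 12 to 48 h, at 76.4%). Genes that the field links to SS18::SSX had 137 members at 16 of 20 genes, with GLTSCR1 called at 43.8% at 12 h and 57.7% at 48 h, throughout at 42 (30.7%), and the fusion throughout at 120 (87.6%). TLE1, a Groucho corepressor gene used as a diagnostic marker, had a member 186 kb away with GLTSCR1 folds of 12.7, 5.86, 6.01, 8.67 and 6.05 and fusion folds of 19.9, 12.4, 7.66 and 16.7. The member 51.4 kb from the homeobox gene UNCX had DMSO folds of 13 and 9.35. That 115 kb from FZD10, a WNT receptor gene, had 11.9 and 10.4, and both proteins were called throughout at each. Other developmental transcription factor genes had 507 members, with GLTSCR1 throughout at 161 (31.8%) and the fusion at 418 (82.4%). FOXC1 (14.9 and 15.3 in DMSO) and GATA3 (14.8 and 7.29) had members with both proteins throughout. HOX genes had 27 members, with 10 and 22, and the members at HOXB3 (11.4 and 9.14) and near HOXD8 (10.5) kept both.

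Signalling genes varied. WNT pathway genes had 99 members, with GLTSCR1 throughout at 33 and the fusion at 79. A member 23 kb from the receptor gene FZD2 had GLTSCR1 folds of 13.3 in DMSO and 4.06, 4.01 and 4.27 at 24, 48 and 96 h, with no call at 12 h and no later fusion call, while members near the ligand genes WNT10A (12.7) and WNT7B (12.6) kept both throughout. The TGF-beta and BMP list had 92 members, with 31 and 72. BMP5, a ligand gene, held a member with DMSO folds of 12.6 and 15.6, and 1 near the inhibitor gene SMAD7 had 11.1 and 6.96, both with both proteins in every list. For FGF and growth factor receptor genes the 113 members gave 27 and 80. PDGFD, a ligand gene, had a member 321 kb away with 12.9 and 18.8 and both throughout, and IGF1R 1 with 12.0 and 5.24 that lacked the fusion at 24 h.

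Hedgehog and Notch genes had 58 members, with GLTSCR1 at 14 (24.1%), 21 (36.2%), 29 (50%) and 27 (46.6%) of them after 12, 24, 48 and 96 h, throughout at 11, and the fusion throughout at 48. All members had 54.5% at 12 h. PTCH1, the Hedgehog receptor gene, held a member with GLTSCR1 folds of 16.1, 7.68, 5.46, 4.93 and 5.51 and fusion folds of 7.21, 5.08, 5.30 and 4.41. Members 148 kb from GAS1, a Hedgehog co-receptor gene (8.61 and 10.6), and 105 kb from DLL1, a Notch ligand gene (8.57 and 10.4), also kept both. Axon guidance and adhesion genes had 305 members, with 121 (39.7%) and 258 (84.6%). SEMA3E, a secreted guidance cue gene, had 19.2, 21.4, 16.4, 14.3 and 11.5 for GLTSCR1 at a member 95.5 kb away, and DCC and SLIT2, a netrin receptor and a ROBO ligand gene, held members with DMSO folds of 15.4 and 11.8. All 3 kept both proteins.

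Extracellular matrix genes had 23 members, and GLTSCR1 was throughout at 3 (13%) and the fusion at 15 (65.2%). Of these, a member 142 kb from DCN, the decorin gene, had GLTSCR1 folds of 22.4, 14.9, 19.5, 17.7 and 13.2, with the fusion in DMSO (4.12) and at 12 h (5.17) only. FBN1, the fibrillin gene, lacked GLTSCR1 at 48 h, and COL18A1, a collagen gene, at 48 and 96 h, and both kept the fusion. The fusion was throughout at 13 of 28 members of the AP-1 and immediate early list, 6 of 14 of the BAF, PBAF and GBAF subunit list, 24 of 43 of the Polycomb list and 9 of 15 of the cell cycle list. GLTSCR1 was throughout at 9, 8, 18 and 6 of these. The differences from all members were not tested.

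In the BAF list GLTSCR1 was called at 13 of 14 members at 12 h and 9 at each other time. A member 24.1 kb from ACTB, the beta-actin gene and a BAF subunit gene, had DMSO folds of 22.0 and 7.04 and both proteins throughout. BICRAL, the paralogue of the GLTSCR1 gene, held 1 with GLTSCR1 folds of 19.2, 18.5, 10.5, 14.1 and 14.1 and no fusion at 24 h. A member 88.0 kb from ARID1B had 14.7 with the fusion (5.10) in DMSO alone. BICRA itself had 1 member, 7.07 kb away, called for GLTSCR1 in DMSO (4.71) and at 12 h (4.58) and at no other time. BRD9, SS18, SSX1 and SSX2 had none. Members 148 kb from KLF4 (14.5) and 8.22 kb from IER2 (14.1) led the immediate early genes after FOS. The fusion was missing at 48 h at the KLF4 member and at 24 and 48 h at the IER2 member. In the Polycomb list the strongest 3 all had BCOR as nearest gene, 228, 150 and 361 kb away, with folds of 22.6, 13.4 and 13.2, and kept GLTSCR1. Members 4.74 kb from CDC25B (10.4), 1.44 kb from CCND1 (9.44) and 412 kb from MKI67 (7.84) had GLTSCR1 throughout, and the fusion was throughout at CCND1 and MKI67 and in DMSO alone at CDC25B. Ribosomal protein genes, which every cell uses, had 1 member, near RPL10, with GLTSCR1 in DMSO alone (3.81).

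The regions nearest to each edge of the rule are given as a description. Just under the limit on width, a member 397 kb from IRX1 (4858 bp) had a GLTSCR1 fold of 7.58 and both proteins throughout. Just over it, regions within BCAS3 (5057 bp) and BAHCC1 (5113 bp) had 8.24 and 6.75 and also both throughout. Nearest to a gene-end window, members within MCF2L2 and TNPO3 had 4.56 and 6.61, without GLTSCR1 at any later time at the first and with it at 12 h alone at the second. Just inside the window, regions within BMI1, a PRC1 subunit gene, and RASGEF1B had 4.48 and 3.68, with GLTSCR1 at all 4 later times at the first and at 24 and 48 h at the second. By overlap with the fusion, 53 members shared under 50 bp with it, the least 3 bp.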

How the data were processed

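The files held the authors' peak lists, 1 for each of 9 libraries, from chromatin immunoprecipitation followed by sequencing. Positions are on GRCh38, per the submitters' processing notes. Among the tools these notes list are the aligner BWA, the duplicate marker Picard and the peak caller MACS2; their settings and versions were not given in the sources used here. Calling was done library by library, per the labels of the peaks. For each summit the authors deposited a fold enrichment over background, which is a linear ratio, a −log10 p and a −log10 q, and an integer score. No list of the 9 went below a −log10 q of 3.00. Read depth is unknown, and an uncalled region fell short of the peak caller's threshold. The input libraries were not analysed here.

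Rows with the same coordinates were joined into 1 region that kept its strongest summit. A later call was a region of the same antibody that overlapped by at least 1 bp. Gene ends came from 20037 protein-coding spans of the RefSeq table (GRCh38.p14). Shares carry exact Clopper-Pearson 95% intervals. Differences between classes were taken within 10 bins of DMSO fold and averaged over the members, with 95% intervals from binomial counting error; neighbouring regions are not independent and no interval covers variation between cultures. The calculation was tested on simulated data. With 1 library per group there was no test and no p-value. Python 3.11.15, numpy 2.4.6, pandas 2.3.3 and scipy 1.17.1 were used.

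The members, the 14 gene lists with 575 entries and the rules were chosen with earlier results of these data known. Named were the 8 members of highest DMSO GLTSCR1 fold with GLTSCR1 at every later time and the 8 with it at none. The rule also took the 6 highest with the fusion throughout and no GLTSCR1, with GLTSCR1 throughout and no fusion, and with neither. It further named the 10 genes with most members (12 with ties), up to 3 members per gene list, the 2 regions on each side of each threshold, and BRD9, BICRA, SS18, SSX1 and SSX2. Not every member the rule names is reported here. A member was assigned to the coding gene whose span holds it, or else to the gene with the nearest end. RefSeq start windows run from 250 bases before to 50 after an annotated start.

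The alternatives were an overlap of 50% of the shorter region, strongest summits within 250 bp, −log10 q of at least 5, later lists of equal length, gene-end windows of 3000 bp, no limit on width, and the strongest fusion summit inside the member. Matching on 4 bins of width as well, and leaving out each later GLTSCR1 list, were added after the data had been seen.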

Additional observations from a re-analysis of the deposited data

How the results depend on the processing

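With strongest summits within 250 bp, GLTSCR1 was kept at 34.9%, 35.3%, 38.2% and 37.8% of members after 12, 24, 48 and 96 h, in every later list at 14.1% and in none at 35.2%. The fusion was kept at 39.5%, 42.8% and 42.4%. The differences from distal regions without the fusion became -4.00, -0.757, 8.0 and 2.45 points, so the sign turned at the first pair of times. A region with several summits fails this rule when another summit is strongest.

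An overlap of 50% of the shorter region gave 50%, 51.3%, 52.1% and 54.4% for GLTSCR1, with 31.2% in every list and 26.2% in none, 83.0%, 77.5% and 81.2% for the fusion, and differences of 4.12, 9.61, 18.3 and 14.6 points. A −log10 q of at least 5, which left 6428 members, gave 53.3%, 54.9%, 55.1% and 58.0%, with 33.0% and 21.9%, and a difference of 20.2 points after 48 h. Later lists of equal length gave 49.3%, 52.5% and 55.3% after 12, 24 and 96 h, 31.5% and 23.5% for every list and none, and 86.4% and 85.7% for the fusion after 12 and 48 h. Gene-end windows of 3000 bp gave 55.5% and 58.0% for GLTSCR1 after 12 and 24 h and 88.9% for the fusion after 12 h.

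The 3936 members that hold the strongest fusion summit had GLTSCR1 at 64.7%, 66.4%, 65.6% and 67.9%, with 45.2% and 14.7% for every list and none. They had the fusion at 83.7%, 79.6% and 82.2%. Their differences from the other distal regions were 9.40, 15.8 and 13.7 points after 12, 48 and 96 h. Here those other regions also took in regions that overlap the fusion without holding its strongest summit, so these differences have another reference set than the reported ones. Against gene-end regions with the fusion the difference after 12 h turned to -0.212 points. Matching on width as well gave 2.06 and 8.71 points over distal regions without the fusion after 12 and 24 h. Without 1 later GLTSCR1 list at a time, 37.9% to 39.9% of members were in every remaining list and 23.9% to 25.3% in none. Without a limit on width no value left the 95% interval of the reported one. The cause of these shifts was not tested. No paired analysis was possible because each group held 1 library. Single libraries and unknown depth limit all shares to a description of these lists.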
